A study of Homo sapiens with 32 samples.

Results

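The 41 genes described here encode plasma proteins of blood clotting and of complement, together with serpins, the serine protease inhibitors that restrain both cascades. They were taken by gene symbol from a list of 16 coagulation genes, 11 serpin genes and 14 complement genes. The rule that took them names genes and uses no measured value, though the list was drawn up with earlier results of these data known. They are 41 of 24238 genes in the table, and all 41 passed the filter on low values, which asked for 1 FPKM or more in 3 or more columns and left 22936 genes. FPKM is a count of sequenced fragments scaled to transcript length and to sequencing depth.

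The cells were HUH7, a human hepatoma line, and the RNA was labelled with ethynyl uridine (EU), a nucleoside that is built into RNA while it is being made and can then be pulled down. Each of the 6 release groups was held in 2 mM thymidine for 24 hours, freed for 2 hours, and arrested with 0.06 ug/mL nocodazole for 16 hours. Mitotic cells were then shaken off, washed and plated again, and were labelled after 0, 40, 80, 105, 165 or 300 minutes. The group they are set against was an asynchronous HUH7 culture, labelled alike. A pulse of 0.5 mM EU lasted 40 minutes in all 7 groups, and no source used here says whether a stated time is when it began or when it ended. Each group has 3 labelled samples, but the table holds 1 value per group, made by the authors. No spread between samples could therefore be had, no test was run, and every comparison below is a description of these 7 columns. All groups are 1 cell line, so the values speak of HUH7 cells and not of liver.

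Hepatocytes make most of the clotting and complement proteins of plasma. In clotting, proteases that carry vitamin K-dependent anchors activate one another in turn until thrombin cuts fibrinogen, and plasmin later dissolves the clot. Complement is a parallel cascade in which C3 is cut on microbial surfaces and C5 to C9 then build a pore in the membrane. Serpins trap proteases of both systems by acting as suicide substrates, and some members of the family have lost inhibition and carry hormones instead.

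The RefSeq windows of 250 bases before the transcription start are shown for the member with the highest mean value in each class, PROS1, SERPINA1 and MASP1, and for F5, the member with the largest difference between 300 and 0 minutes among those that reached 100 FPKM. Their positions on GRCh38.p14, all on the minus strand, are PROS1 chr3:93973897-93974146, SERPINA1 chr14:94390636-94390885, MASP1 chr3:187291738-187291987 and F5 chr1:169586482-169586731. That build is RefSeq's and differs from the hg19 build named in the submitters' processing notes. The sequences run 5′ to 3′ in lower case, with a match to the FOXA word in capitals.
PROS1: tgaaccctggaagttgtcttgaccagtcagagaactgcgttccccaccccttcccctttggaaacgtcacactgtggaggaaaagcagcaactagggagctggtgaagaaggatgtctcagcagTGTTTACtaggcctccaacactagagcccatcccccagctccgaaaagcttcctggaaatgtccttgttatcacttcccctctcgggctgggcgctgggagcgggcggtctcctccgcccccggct
SERPINA1: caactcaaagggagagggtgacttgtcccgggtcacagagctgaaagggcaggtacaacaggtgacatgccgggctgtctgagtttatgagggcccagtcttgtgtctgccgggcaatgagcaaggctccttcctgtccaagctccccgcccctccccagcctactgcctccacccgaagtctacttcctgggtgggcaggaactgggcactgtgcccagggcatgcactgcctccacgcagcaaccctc
MASP1: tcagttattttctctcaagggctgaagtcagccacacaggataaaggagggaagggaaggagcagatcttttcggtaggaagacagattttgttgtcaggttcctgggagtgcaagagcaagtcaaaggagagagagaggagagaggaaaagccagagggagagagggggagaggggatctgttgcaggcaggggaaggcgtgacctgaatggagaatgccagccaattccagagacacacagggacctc
F5: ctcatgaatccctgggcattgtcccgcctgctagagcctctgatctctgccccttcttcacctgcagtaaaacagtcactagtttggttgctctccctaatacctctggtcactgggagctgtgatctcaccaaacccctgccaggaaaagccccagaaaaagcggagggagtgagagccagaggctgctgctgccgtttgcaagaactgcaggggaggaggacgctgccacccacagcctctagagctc
Of the 41 members, 35 matched a RefSeq promoter window. On both strands 5 words were searched, none of them a part of another. The FOXA word TGTTTAC stood in 5 of the 35 windows, 14.3%, against 2.98% of all 27305 promoter windows. It was found in PROS1, where it begins 126 bases before the start, and in KNG1, SERPINA6, C4BPA and C8B. The C/EBP word TTGCNNAA stood in 6 windows, 17.1% against 9.13% of all. The HNF1 word GTTAATNAT stood in 2, those of F13B and C4BPA, 5.71% against 0.678%. The HNF4 word CAAAGTCCA stood in 1, that of PROZ, 2.86% against 0.293%. TATAAA stood in 4, 11.4% against 11.1%. The windows of SERPINA1, MASP1 and F5 held none of the 5 words, which says only that these letters are not in those windows. Only 1 window was searched per gene. Any other start that a gene may have, such as SERPINA1 with its 11 transcripts, was not covered.

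Hepatocyte identity was visible in the asynchronous column, where all 12 hepatocyte marker genes, among them ALB and AFP, lay between 54.8 and 4017 FPKM. Their summed level was 2919 FPKM at 0 minutes and 5665 FPKM at 300 minutes, against 20464 FPKM in the asynchronous culture. Of 12 blood cell markers, HBB and PPBP were listed at 0 in 6 of 7 columns, and the summed level of the list was 514 FPKM at 0 minutes, 1291 FPKM at 80 minutes and 475 FPKM at 300 minutes, against 261 FPKM in the asynchronous culture, most of it from CD68. Of 12 markers of stroma and endothelium none was listed at 0, and LUM gave most of their summed 432 FPKM at 0 minutes, against 158 FPKM in the asynchronous culture. The part of these levels in the values below was not tested. Summed FPKM over all transcripts ranged from 6.24e+06 at 0 minutes to 1.06e+07 at 105 minutes. The size of the smallest steps in the values put the depth of the asynchronous column at about 1.87 times that of 0 minutes. If 1 step is 1 fragment, the median member rested on about 132 fragments at 0 minutes, a counting error of 8.72%. On that reading 5 members (F9, F12, SERPINA3, SERPINA7 and C8G) fell under 20 in at least 1 column. These numbers take the mean value of a gene over its whole span. A short transcript, such as that of MASP2, can rest on fewer.

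At 0 minutes, 13 of 16 coagulation genes, 9 of 11 serpin genes and 9 of 14 complement genes lay below their asynchronous level. Of all genes 45.1% lay above theirs. The complement median was only 0.10 under the all-gene median on the log2 scale. A difference is counted here where the ratio of FPKM + 1 is at least 2-fold, and folds are given on that scale. At 0 minutes 19 of the 41 members were at least 2-fold lower and 2, MASP2 and SERPINC1, at least 2-fold higher, against 19.0% of all genes lower and 14.1% higher. By class, 8 of 16 coagulation genes, 6 of 11 serpin genes and 5 of 14 complement genes were lower. The median log2 difference was -1.10 for coagulation, -1.57 for serpins and -0.24 for complement, against -0.14 for all genes. F5, C3 and CFI came under 2-fold with quantile normalization and with equal column medians, and PROS1, SERPING1 and SERPINC1 with quantile normalization alone. F11 and KLKB1 became at least 2-fold lower with quantile normalization, at -1.24 and -1.05 on the log2 scale, and C9 at least 2-fold higher with equal column medians, at 1.33. The all-gene median was 0.01 after quantile normalization and 0.19 with equal column medians. The summed level of the 41 genes was 1426 FPKM at 0 minutes and 2089 FPKM at 300 minutes, 30.0% and 43.9% of the 4754 FPKM of the asynchronous culture. Fewer cells making a transcript and less of it made per cell cannot be told apart in such bulk values. Since FPKM is scaled to sequencing depth, a difference in total labelled RNA between groups cannot be seen either. The samples with spike-in RNA were not analysed here.

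At 300 minutes the count below the asynchronous culture was again 19 of 41, with 3 members (F5, C6 and C9) at least 2-fold higher, against 8.57% of all genes lower and 9.84% higher. The 2 comparisons share the asynchronous column. Within the release series, the 300-minute value was at least 2-fold above the 0-minute value in 10 members and at least 2-fold below it in 4, against 18.9% of all genes higher and 8.82% lower. These 14 split over the classes as 4 higher and 1 lower in coagulation, 3 and 2 among the serpins, and 3 and 1 in complement. Among the 10 higher members, C6 and PLG passed 2-fold on the mean of their transcripts but not on the longer transcript alone. The class medians were 0.38, -0.24 and 0.13 on the log2 scale, against 0.21 for all genes. The split depended on scaling, since 6 members were higher and 4 lower after quantile normalization, and 4 higher and 8 lower when the column medians were made equal. Those scalings moved the median over all genes from 0.21 to -0.02 and -0.14. Of all 22936 genes, 2257 were higher and 2295 lower after quantile normalization. With equal column medians 2186 were higher and 4103 lower.

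**Figure D1:**
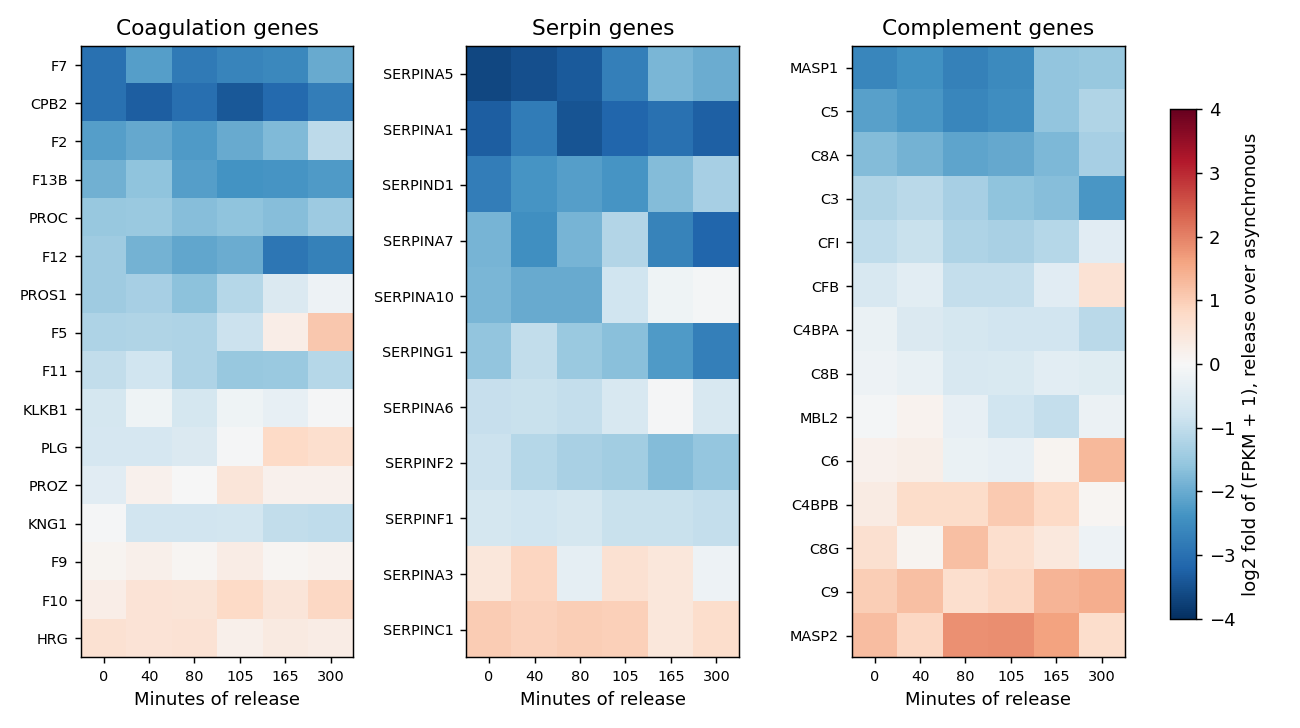
Heat map of the log2 ratio of FPKM + 1 at each release time over the asynchronous culture for the 41 members, 1 row per gene, 1 panel per class, ordered by the 0-minute value; blue is lower and red higher at release. The column at 0 minutes runs from -3.64 for SERPINA5 to 1.23 for MASP2.

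Among the vitamin K-dependent clotting genes, PROS1, which encodes protein S, a cofactor for the inactivation of factors V and VIII, gave 84.7, 90.7, 73.1, 104, 153 and 200 FPKM at 0, 40, 80, 105, 165 and 300 minutes, against 229 FPKM in the asynchronous culture. It dipped at 80 minutes and stood 2.34-fold higher at 300 than at 0 minutes, by which time it was within 1.14-fold of the asynchronous level. F2, prothrombin, gave 55.6, 63.3, 54.0, 64.7, 76.1 and 125 FPKM at 0, 40, 80, 105, 165 and 300 minutes, against 262 FPKM in the asynchronous culture. It lay between 54.0 and 64.7 FPKM in the first 105 minutes and was 2.23-fold higher at 300 than at 0 minutes. The 300 against 0 minute values of both genes were still higher but came under 2-fold with either other scaling, 0.62 and 0.86 on the log2 scale for PROS1 and 0.63 and 0.79 for F2.

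F7, the factor that tissue factor activates to start clotting, gave 33.6, 59.0, 37.7, 43.0, 45.3 and 67.5 FPKM at 0, 40, 80, 105, 165 and 300 minutes, against 274 FPKM in the asynchronous culture. It stood 7.95-fold below the asynchronous culture at 0 minutes and 4.02-fold below it at 300 minutes. F10, which encodes factor X, the protease that forms thrombin, neighbours F7 on the same strand of chromosome 13 and behaved otherwise: it held 47.5 FPKM at 0 minutes and 69.8 FPKM at 300 minutes, against 39.2 FPKM in the asynchronous culture. PROC, the precursor of the anticoagulant protease activated protein C, kept between 29.7 and 35.4 FPKM through the release, against 99.2 FPKM in the asynchronous culture. PROZ, which encodes protein Z, a cofactor of the serpin SERPINA10, was highest at 105 minutes with 85.6 FPKM, against 61.1 FPKM in the asynchronous culture. F9, factor IX, stayed between 2.07 and 2.54 FPKM at every release time, against 1.90 FPKM in the asynchronous culture.

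F5, the cofactor that factor X needs to form thrombin, showed the largest of the members' differences between 300 and 0 minutes. It gave 57.2, 57.9, 56.6, 73.7, 163 and 285 FPKM at 0, 40, 80, 105, 165 and 300 minutes, against 135 FPKM in the asynchronous culture. The first 3 values lay between 56.6 and 57.9 FPKM, and the 300-minute value stood 4.91-fold above 0 minutes and 2.10-fold above the asynchronous culture. F5 was the only coagulation gene at least 2-fold above the asynchronous culture at 300 minutes, and its 300 against 0 minute difference was past 2-fold under both other scalings, at 1.80 and 1.93 on the log2 scale. F13B, the carrier subunit of the factor that cross-links fibrin, was instead 14.1 FPKM at 0 minutes and 10.9 FPKM at 300 minutes, against 56.2 FPKM in the asynchronous culture.

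The 4 genes of the contact pathway, which starts clotting on charged surfaces, lay between 5.59 and 47.4 FPKM in all columns. F12, which encodes the factor that autoactivates there, had 16.9 FPKM at 0 minutes and 6.43 FPKM at 300 minutes, against 47.4 FPKM in the asynchronous culture. Among the 16 coagulation members it was the only one at least 2-fold lower at 300 than at 0 minutes, and came to -0.99 on the log2 scale after quantile normalization. F12 overlaps GRK6 on the opposite strand, and fewer than 20 steps lay behind its values at 165 and 300 minutes. KNG1, the gene of kininogen, the source of bradykinin, was 21.2 FPKM at 0 minutes and between 10.3 and 12.7 FPKM at every later time, against 21.7 FPKM in the asynchronous culture. F11, the protease that follows factor XII, and KLKB1, prekallikrein, lie side by side on chromosome 4. F11 had 13.1 FPKM at 0 minutes and 11.7 FPKM at 300 minutes, against 26.9 FPKM in the asynchronous culture. KLKB1, which overlaps CYP4V2 on the same strand, had 12.8 FPKM at 0 minutes and 20.7 FPKM at 300 minutes, against 21.5 FPKM in the asynchronous culture.

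Of the genes of clot removal, PLG, the plasminogen gene, had 17.9 FPKM at 0 minutes, 51.4 FPKM at 165 minutes and 47.3 FPKM at 300 minutes, against 29.1 FPKM in the asynchronous culture. The 300-minute value was 2.56-fold above that at 0 minutes, or 0.99 on the log2 scale with equal column medians. Taken alone, the longer PLG transcript was 1.92-fold higher and the shorter one 2.81-fold, and the count uses their mean. PLG resembles LPA and other copies in sequence, so reads can have been shared between them. CPB2, the carboxypeptidase that protects fibrin from plasmin, stayed between 4.54 and 7.58 FPKM at every release time, against 57.7 FPKM in the asynchronous culture, and was 7.95-fold lower at 0 minutes. HRG, a glycoprotein that binds heparin and plasminogen, was 19.0 FPKM at 0 minutes and 15.2 FPKM at 300 minutes, against 12.2 FPKM in the asynchronous culture.

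**Figure D2:**
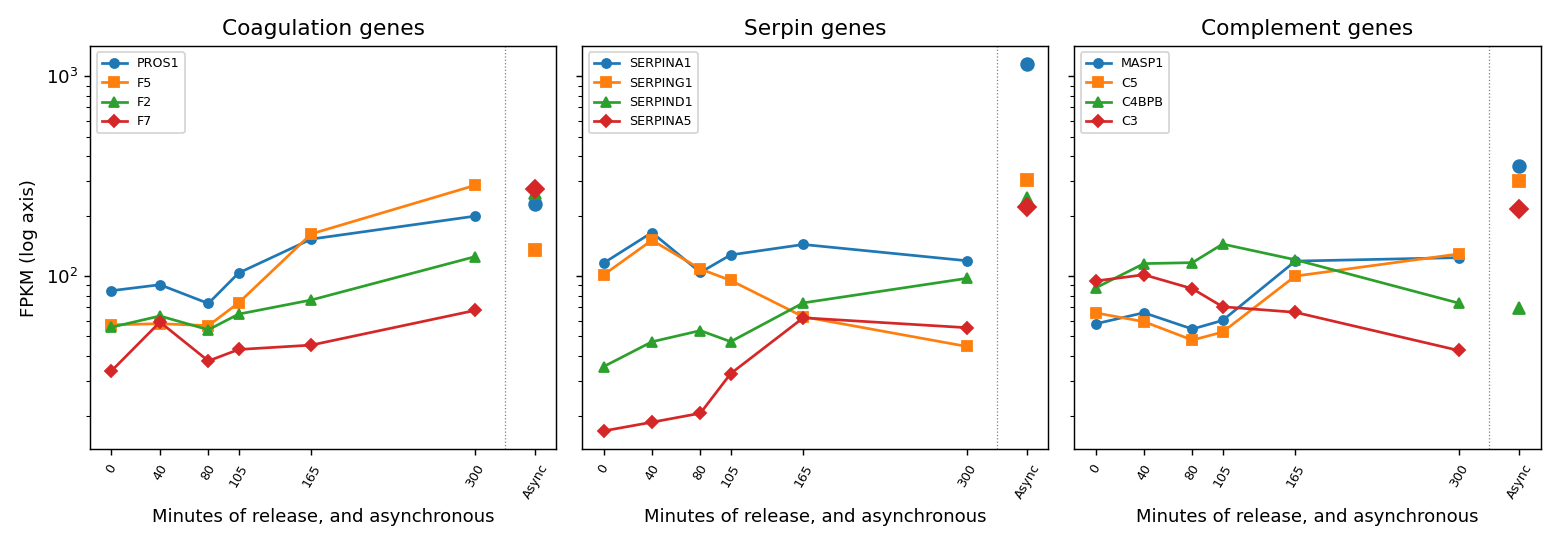
FPKM (log axis) of the 4 members of each class with the highest mean over the 7 columns, plotted against minutes of release, with the asynchronous culture as the separate point on the right of each panel. PROS1 and F5 climb after 80 minutes to 200 and 285 FPKM at 300 minutes, while SERPING1 and C3 end at 44.6 and 42.6 FPKM; SERPINA1 lies far under its asynchronous value of 1150 FPKM at every time.

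SERPINA1, the gene of alpha-1 antitrypsin, the main plasma inhibitor of neutrophil elastase, had the highest mean FPKM of the members over all columns. It was the highest member at 0 and 40 minutes and in the asynchronous culture. C4BPB was the highest at 80 and 105 minutes, and F5 at 165 and 300 minutes. SERPINA1 gave 116, 166, 105, 128, 144 and 120 FPKM at 0, 40, 80, 105, 165 and 300 minutes, against 1150 FPKM in the asynchronous culture. All 6 release values lay between 105 and 166 FPKM, and the gene stood 9.80-fold below the asynchronous culture at 0 minutes and 9.54-fold below it at 300 minutes. SERPINA1 alone made up 8.16% of the members' summed FPKM at 0 minutes and 5.73% at 300 minutes, against 24.2% in the asynchronous culture. SERPINA3, the inhibitor of cathepsin G, lies in the same cluster on chromosome 14 and was at most 10.4 FPKM in any column.

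SERPING1, the inhibitor of C1 and of the contact proteases, gave 102, 152, 109, 95.4, 62.7 and 44.6 FPKM at 0, 40, 80, 105, 165 and 300 minutes, against 304 FPKM in the asynchronous culture. It was highest at 40 minutes and lowest at 300 minutes, where it stood 2.25-fold below 0 minutes and 6.69-fold below the asynchronous culture. Its 300 against 0 minute difference was larger under both other scalings, -1.79 and -1.54 on the log2 scale against -1.17 as deposited.

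The serpins that inhibit clotting or fibrinolytic proteases held the 3 that were higher late in the release. SERPIND1, heparin cofactor II, an inhibitor of thrombin, gave 35.3, 47.0, 53.5, 47.1, 73.6 and 97.6 FPKM at 0, 40, 80, 105, 165 and 300 minutes, against 248 FPKM in the asynchronous culture. SERPINA5, the protein C inhibitor, gave 16.8, 18.6, 20.6, 32.6, 62.0 and 55.3 FPKM at 0, 40, 80, 105, 165 and 300 minutes, against 222 FPKM in the asynchronous culture. SERPIND1 was 2.72-fold higher at 300 than at 0 minutes and SERPINA5 3.16-fold. At 0 minutes SERPIND1 stood 6.85-fold and SERPINA5 12.5-fold below the asynchronous culture. SERPINA5 overlaps SERPINA4 on the same strand and SERPIND1 lies within PI4KA on the opposite strand.

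SERPINA10, the protein Z-dependent inhibitor of factor X, was the first member to reach 2-fold above 0 minutes. It had 12.7 FPKM at 0 minutes, 26.9 FPKM at 105 minutes, 42.3 FPKM at 165 minutes and 45.2 FPKM at 300 minutes, against 47.4 FPKM in the asynchronous culture. Its 300 against 0 minute fold was 3.36, and the differences of SERPINA10, SERPINA5 and SERPIND1 were past 2-fold under all 3 scalings. SERPINC1, antithrombin, ran the other way, with 23.4 FPKM at 0 minutes and 18.5 FPKM at 300 minutes, against 11.1 FPKM in the asynchronous culture. It was 2.02-fold higher at 0 minutes, but 0.70 on the log2 scale after quantile normalization. SERPINF2, the inhibitor of plasmin, was 47.9 FPKM at 0 minutes and 29.6 FPKM at 300 minutes, against 88.5 FPKM in the asynchronous culture.

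Of the 3 serpins that do not inhibit proteases, SERPINF1, an anti-angiogenic factor, lay between 37.0 and 44.1 FPKM at every release time, against 71.9 FPKM in the asynchronous culture. SERPINA6, the cortisol carrier, reached 40.2 FPKM at 165 minutes and had 26.5 FPKM at 300 minutes, against 41.8 FPKM in the asynchronous culture. SERPINA7, the thyroxine carrier, was at or under 2.98 FPKM through the release and listed at 0 at 300 minutes, against 7.96 FPKM in the asynchronous culture. Its counted differences rest on a few fragments.

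In complement, C3, the component on which all activation routes meet, gave 94.7, 102, 86.7, 70.4, 66.1 and 42.6 FPKM at 0, 40, 80, 105, 165 and 300 minutes, against 218 FPKM in the asynchronous culture. From 40 minutes on each value was lower than the one before it, and at 300 minutes C3 was lower than at 0 minutes, at -1.14 on the log2 scale, and 5.03-fold below the asynchronous culture. CFB, the protease of the alternative pathway, had 30.9 FPKM at 0 minutes, 34.6 FPKM at 165 minutes and 72.6 FPKM at 300 minutes, against 48.2 FPKM in the asynchronous culture. That was 2.31-fold above 0 minutes, and it came to 0.95 and 0.84 on the log2 scale with the other scalings. CFB overlaps C2 on the same strand, so their reads may not be separable.

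MASP1, a protease of the lectin pathway, gave 57.8, 65.7, 54.5, 60.2, 119 and 124 FPKM at 0, 40, 80, 105, 165 and 300 minutes, against 357 FPKM in the asynchronous culture. Its first 4 values lay between 54.5 and 65.7 FPKM, its last 2 were 119 and 124 FPKM, and it stood 6.09-fold below the asynchronous culture at 0 minutes and 2.86-fold below it at 300 minutes. Its 300 against 0 minute difference was 1.09 on the log2 scale, and 0.55 and 0.72 with the other scalings. MASP2, the lectin pathway protease that cuts C4, was the member furthest above the asynchronous culture at 0 minutes. It had 28.0 FPKM at 0 minutes, 43.9 FPKM at 105 minutes and 19.0 FPKM at 300 minutes, against 11.3 FPKM in the asynchronous culture. These are means of 2 transcript values, and at 105 minutes the longer transcript read 30.2 FPKM and the shorter one 57.6 FPKM. MBL2, the mannose-binding lectin that recruits MASP1 and MASP2, was 45.4 FPKM at 0 minutes, 24.2 FPKM at 165 minutes and 40.9 FPKM at 300 minutes, against 48.0 FPKM in the asynchronous culture.

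C5, from which the terminal pathway starts, gave 65.6, 59.3, 48.0, 52.6, 100 and 129 FPKM at 0, 40, 80, 105, 165 and 300 minutes, against 301 FPKM in the asynchronous culture. It was lowest at 80 minutes and 1.96-fold higher at 300 than at 0 minutes. C6, the next pore component, had 5.95 FPKM at 0 minutes, 5.71 FPKM at 165 minutes and 14.0 FPKM at 300 minutes, against 5.18 FPKM in the asynchronous culture. C6 was 2.16-fold higher at 300 than at 0 minutes, or 0.78 on the log2 scale with equal column medians. Taken alone, the longer C6 transcript was 1.86-fold higher and the shorter one 2.46-fold, and the count uses their mean. C9, which polymerizes into the pore, was above the asynchronous culture at every time, with 29.8 FPKM at 0 minutes and 41.9 FPKM at 300 minutes, against 14.6 FPKM, and it overlaps DAB2 on the same strand.

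The 3 genes of the C8 complex differed from one another. C8A had 7.57 FPKM at 0 minutes and 10.4 FPKM at 300 minutes, against 27.8 FPKM in the asynchronous culture. C8B, its neighbour on the opposite strand, had 5.26 FPKM at 0 minutes and 4.12 FPKM at 300 minutes, against 6.20 FPKM in the asynchronous culture. C8G, a short gene with under 20 steps in most columns, had 26.9 FPKM at 0 minutes, 40.8 FPKM at 80 minutes and 14.6 FPKM at 300 minutes, against 17.1 FPKM in the asynchronous culture.

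Among the fluid-phase regulators, C4BPB, the beta chain of C4-binding protein, which also binds protein S, gave 87.4, 116, 117, 145, 121 and 73.4 FPKM at 0, 40, 80, 105, 165 and 300 minutes, against 69.7 FPKM in the asynchronous culture. It was highest at 105 minutes and within 1.05-fold of its asynchronous level at 300 minutes. C4BPA, the alpha chain encoded next to it on the same strand, stayed at or below 6.91 FPKM through the release, against 8.58 FPKM in the asynchronous culture. CFI, the protease that cuts C3b and C4b, had 24.1 FPKM at 0 minutes and 36.2 FPKM at 300 minutes, against 49.8 FPKM in the asynchronous culture.

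**Figure D3:**
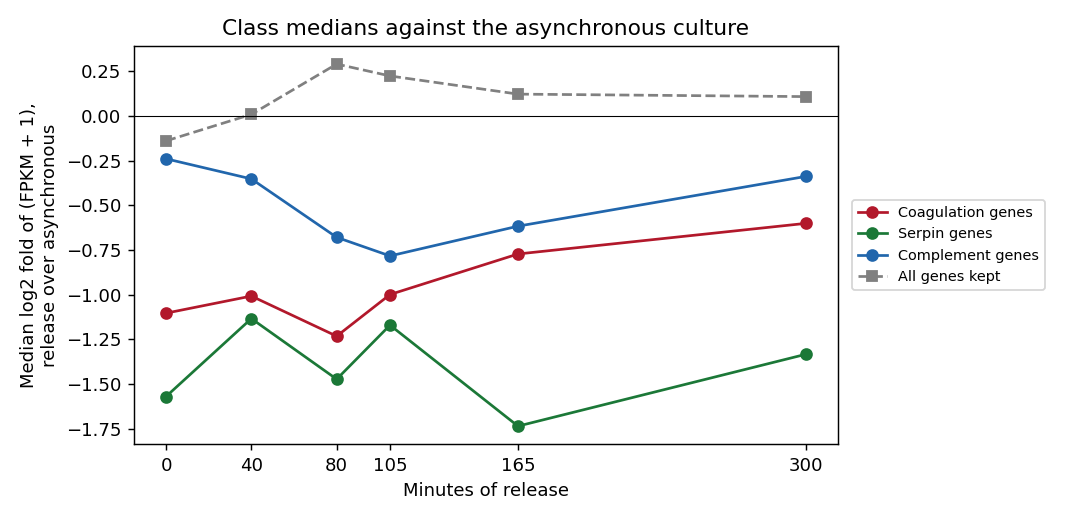
Median log2 ratio of FPKM + 1 over the asynchronous culture for each class and for all 22936 genes kept, by minutes of release. The all-gene median reaches 0.29 at 80 minutes, while the class medians there are -1.23 for coagulation, -1.47 for serpins and -0.68 for complement.

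Against the asynchronous culture, the median of the members and that of all genes lay furthest apart at 80 minutes, at -1.22 and 0.29 on the log2 scale. No member was at least 2-fold above or below its 0-minute value at 80 minutes, against 20.1% of all genes higher and 2.66% lower. The median log2 difference from 0 minutes was -0.09 for the members and 0.31 for all genes, with 31 of 41 members below their 0-minute value. The all-gene median changed sign with scaling: the medians were -0.28 for the members and -0.07 for all genes after quantile normalization, and -0.48 and -0.06 with equal column medians. At that time 8 of 41 members (19.5%) were above their asynchronous level, and 63.5% of all genes were. After quantile normalization 7 members (17.1%) and 49.4% of all genes were above it, and with equal column medians 8 members (19.5%) and 61.8%. At 40 against 0 minutes the medians were 0.09 for the members and 0.10 for all genes, and no member reached 2-fold, against 3.24% of all genes higher and 2.05% lower. The figures against 0 minutes share the 0-minute column, those against the asynchronous culture share that column, and those of 80 minutes share the 80-minute column.

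The highest release value fell at 300 minutes for 17 of 41 members (41.5%) and at 80 minutes for 1, C8G (2.44%). Among all genes those shares were 21.1% and 23.1%. The lowest release value fell at 80 minutes for 15 members (36.6%), against 7.0% of all genes. Those 15 came from every class and included F2, F5, PROS1, SERPINA1, SERPINA10, C5, CFB and MASP1. With quantile normalization, tried after the data were seen, 17 members were lowest at 80 minutes (41.5%), against 20.3% of all genes, and 14 were highest at 300 minutes (34.1%), against 25.4%. With equal column medians 19 were lowest at 80 minutes (46.3%), against 13.6% of all genes, and 11 highest at 300 minutes (26.8%), against 17.0%.

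**Figure D4:**
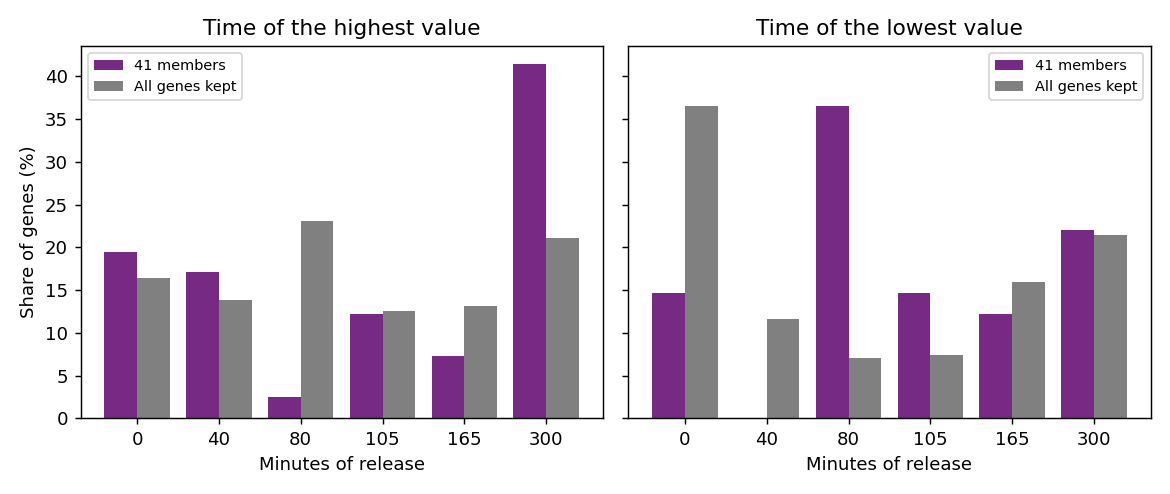
Share of the 41 members (purple) and of all genes kept (grey) whose highest (left) and lowest (right) release value falls at each time. At 80 minutes the purple bars read 2.44% and 36.6%, the grey bars 23.1% and 7.0%.

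Few members reached 2-fold between neighbouring times. At 80 against 40 minutes, C8G and MASP2 were at least 2-fold higher and SERPINA3 lower. That was 2 members and 1, against 13.5% of all genes higher and 2.72% lower. C8G and SERPINA3 had under 20 steps at 1 of these times, and the MASP2 difference came from its short transcript. At 105 against 80 minutes only SERPINA10 was higher and none lower, against 2.02% and 2.57% of all genes. At 165 against 105 minutes F5 was higher and SERPINA7 lower, against 2.27% and 5.27%. At 300 against 165 minutes C6 and CFB were higher, by 2.24-fold and 2.07-fold, and none lower, against 3.04% and 4.10%. Measured from 0 minutes in the deposited values, F5, PLG, SERPINA5, SERPIND1 and MASP1 first reached 2-fold at 165 minutes, and F2, PROS1, C6 and CFB at 300 minutes. These times depend on scaling. F5 came to 0.96 on the log2 scale at 165 against 0 minutes after quantile normalization. F2, PROS1, MASP1 and CFB were under 2-fold at 300 against 0 minutes with either other scaling. The share of all genes first reaching 2-fold at each time was not counted.

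Among the members, gene length went with the late values. Of the 11 members that span at least 50 kb, F5, PROS1, PLG, CPB2, C3, C5, C6, C8A, C9, CFI and MASP1, 10 had their highest release value at 165 or 300 minutes, and their median log2 difference at 300 against 0 minutes was 0.97. Of the 30 shorter members 10 did so, and their median was -0.20. Of all genes kept, whatever their length, 13.1% were highest at 165 minutes and 21.1% at 300 minutes. The share among all genes of at least 50 kb was not counted. Across the 41 members the log2 difference and the log of the span had a Pearson correlation of 0.41 and a Spearman correlation of 0.37, against 0.08 and 0.07 across 17095 protein-coding genes; the values share their columns and some members share a locus. C3 was the exception among the long genes, with 52.9 kb and its highest value at 40 minutes. If fragments were counted over the whole span, 72.4% of the PLG signal at 300 minutes lay in its first 9.65 kb.

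For some members the table gives several values, and transcripts of different exon content can share 1 value, as 10 of the 11 SERPINA1 transcripts did although their exons add up to 3236 to 3532 bases. This is how values would look if fragments were counted from transcript start to end, introns included, but the counting method is not stated by the submitters. The shares that follow, which divide the signal between a short and a long span, hold only if values were made that way. The remaining SERPINA1 transcript read 1.15 to 1.16 times the others in all 7 columns. The spans are GENCODE release 29, so the shares are approximate.

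In C6 the last 71.3 kb of its 119 kb span, 59.8% of the length, held 81.4% of the signal at 300 minutes and 60.4% at 0 minutes, against 63.5% in the asynchronous culture. The remaining 47.9 kb at the start read 5.49 FPKM at 300 minutes and 5.83 FPKM at 0 minutes, against 4.55 FPKM in the asynchronous culture. On that reading, the higher value of C6 at 300 minutes lay in the downstream stretch.

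In PLG the first 9.65 kb of 51.1 kb, 18.9% of the length, held 72.4% of the signal at 300 minutes and 50.8% at 0 minutes, against 69.4% in the asynchronous culture. The stretch read 75.0 FPKM at 300 minutes and 26.1 FPKM at 0 minutes, against 45.8 FPKM in the asynchronous culture. The rest of the gene read 6.66 FPKM at 300 minutes and 5.89 FPKM at 0 minutes, against 4.69 FPKM in the asynchronous culture. In MASP1 the first 57.8 kb of 74.7 kb, where a shorter transcript ends, came to 101% of the full-span signal at 300 minutes and 97.7% at 0 minutes, against 100.1% in the asynchronous culture. The first 45.6 kb, where a still shorter transcript ends, came to 85.4% at 300 minutes and 79.8% at 0 minutes, against 78.6% in the asynchronous culture. Shares over 100% cannot occur, so the division by span is inexact for MASP1 and no remainder is given.

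In MASP2 the first 2.44 kb of 20.7 kb read 23.8, 8.62, 51.0, 57.6, 51.1 and 18.0 FPKM at 0, 40, 80, 105, 165 and 300 minutes, against 9.35 FPKM in the asynchronous culture. The full span read 32.3, 33.1, 34.9, 30.2, 21.9 and 19.9 FPKM at these times, against 13.3 FPKM in the asynchronous culture. The 2-fold difference of MASP2 between 80 and 40 minutes, taken on the mean of both values, thus came from the value of the short transcript. Over so short a span, 8.62 FPKM at 40 minutes stands for few fragments. The fragment numbers given for the members used the whole gene span.

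**Figure D5:**
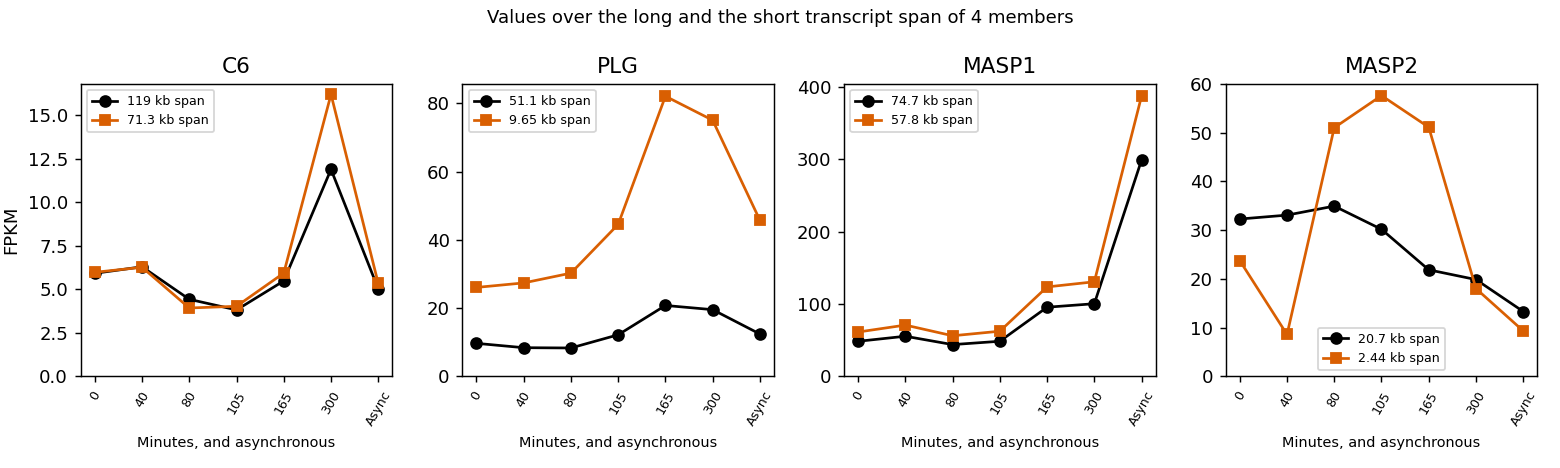
FPKM over the long (black) and the short (orange) transcript span of C6, PLG, MASP1 and MASP2 at each release time, with the asynchronous culture at the right. In PLG the short stretch at the start of the gene reaches 82.1 FPKM at 165 minutes while the full span reads 20.8 FPKM; in MASP2 the 2 lines cross between 40 and 80 minutes.

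There were 9 pairs of members that neighbour each other with no other protein-coding gene between them. In 6 of the 9 pairs both genes differed in the same direction between 300 and 0 minutes, and in 5 of 9 between 0 minutes and the asynchronous culture. Of all 41 members, 23 were higher and 18 lower in the first comparison, and 10 higher and 31 lower in the second. Many pairs that are not neighbours thus also share a direction, and their share was not counted. The median gap in log2 difference between neighbours was 0.67 at 300 against 0 minutes, against 0.93 over all 820 pairs of members. SERPINA5 and SERPINA3 lay furthest apart, at 1.66 and -0.64.

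The other genes of these pathways, from lists of names, were counted in the same way. Of 25 further clotting and fibrinolysis genes kept, 7 stood 2-fold or more above the asynchronous culture at 0 minutes and 2 stood as far below it, with 11 above and 14 below their asynchronous level at any size. Of 28 further complement genes 6 were higher and 3 lower, and of 17 further serpins 1 was higher and 1 lower, beside 14.1% of all genes higher and 19.0% lower. At 300 against 0 minutes the counts higher and lower were 3 and 1, 3 and 4, and 1 and 1 for these lists, beside 18.9% and 8.82% of all genes. F2RL1, a protease-activated receptor, had 493 FPKM at 0 minutes and 863 FPKM at 300 minutes, against 57.0 FPKM in the asynchronous culture. F2R, the thrombin receptor, had 116 FPKM at 0 minutes and 224 FPKM at 300 minutes, against 25.6 FPKM in the asynchronous culture. CD55, a membrane protein that shields cells from complement, had 243 FPKM at 0 minutes, 468 FPKM at 40 minutes and 105 FPKM at 300 minutes, against 47.8 FPKM in the asynchronous culture. A2M, a secreted protease trap, was instead lower at release, at 37.1 FPKM at 0 minutes and 99.9 FPKM at 300 minutes, against 157 FPKM in the asynchronous culture.

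Other secreted liver proteins also had medians below that of all genes at 0 minutes. Of 20 fibrinogen and acute phase genes kept, 11 were at least 2-fold lower and 3 higher than in the asynchronous culture, with a median of -1.84 on the log2 scale. Of 15 apolipoprotein genes 6 were lower and none higher, with a median of -0.74. Of the 4 genes of the albumin cluster 3 were lower, with a median of -2.77. Over all genes 19.0% were lower and 14.1% higher, with a median of -0.14. At 300 against 0 minutes the medians were -0.34, 0.22 and 1.46 for these lists, and 0.04 for the 41 members. Whether the lists differ was not tested, since the table has 1 value per group.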

How the data were processed

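Nascent EU-labelled RNA was measured in 7 groups of HUH7 cells, and 11 of the 32 listed samples, unlabelled or with spike-in RNA, were not analysed here. The authors deposited FPKM values for RefSeq transcripts in 1 pooled column per group, per the file headers. How they pooled libraries and used strand is not given in the sources read. Tools named in the submitters' processing notes are Bowtie2 2.2.9, TopHat, bedtools and bcl2fastq, with build hg19. Of 48205 transcripts, 97.8% matched a RefSeq symbol, and a gene's value is the mean of its distinct transcript values. Genes were kept at 1 FPKM or more in 3 or more columns, and log2(FPKM + 1) differences of the deposited values were computed with Python 3.11.15, pandas 2.3.3, numpy 2.4.6 and scipy 1.17.1, after checks on simulated data. The limma test planned for library columns could not be run. The pseudocount understates differences of low genes. Values in every column are given for the 4 members of each class with the highest mean FPKM. Other pathway genes are named where at least 4-fold apart, with at least 100 FPKM in the higher column. The table lists no counts, so no interval is given. Of the members, 8 overlap another gene on the same strand and 14 on the opposite strand in GENCODE release 29. The members, lists, motifs and comparisons were chosen with earlier results of these data known. The 10 alternatives covered the pseudocount, the filter, scaling, the choice of transcript and the fold counted.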

Additional observations from a re-analysis of the deposited data

How the results depend on the processing

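No paired analysis was possible because each group has 1 pooled column, and for the same reason no replicate could be left out. Dropping the filter could move no count of members, since all 41 passed it. Using protein-coding transcripts alone moved no count of members by over 1.5 times. In the lines that follow, a count is the number of the 41 members past the fold named. Shares of all genes were not worked out for the other pseudocounts and folds. Whether those counts differ from all genes is therefore not known.

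With equal column medians, members higher at 300 against 0 minutes numbered 4 in place of 10 and members lower 8 in place of 4; higher at 165 against 105 minutes 3 in place of 1, at 300 against 165 minutes 1 in place of 2 and at 80 against 40 minutes 0 in place of 2; lower at 80 against 0 minutes 3 in place of 0. After quantile normalization, members higher numbered 6 at 300 against 0 minutes, 1 at 0 minutes against the asynchronous culture in place of 2, 2 at 105 against 80 minutes in place of 1 and 1 at 300 against 165 minutes. Members lower numbered 1 at 80 against 0 minutes and 4 at 80 against 40 minutes in place of 1. Over all genes, the share of counted differences that were higher was 42.7% at 0 minutes against the asynchronous culture, 88.3% at 80 against 0 minutes, 68.2% at 300 against 0 minutes, 83.2% at 80 against 40 minutes and 30.1% at 165 against 105 minutes. It was 68.2%, 60.2%, 34.8%, 59.1% and 38.0% with equal medians, and 50.1%, 59.8%, 49.6%, 56.6% and 40.4% after quantile normalization.

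With a pseudocount of 5, members higher numbered 1 at 0 minutes against the asynchronous culture, 0 at 105 against 80 minutes, 0 at 300 against 165 minutes and 0 at 80 against 40 minutes. Members lower numbered 0 at 165 against 105 minutes, 2 at 300 against 0 minutes and 0 at 80 against 40 minutes. With a pseudocount of 0.1, 2 were higher at 105 against 80 minutes, and 1 was lower at 300 against 165 minutes and 1 at 40 against 0 minutes. With the highest transcript of each gene, 1 was higher at 80 against 0 minutes, 1 lower at 300 against 165 minutes and 1 lower at 40 against 0 minutes. With a filter at 10 FPKM, 1 was higher at 300 against 165 minutes, and 0 were lower at 165 against 105 and at 80 against 40 minutes.

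Counted from 1.5-fold, members higher numbered 5 at 0 minutes and 7 at 300 minutes against the asynchronous culture, 2 at 40 and 2 at 80 against 0 minutes, 4 at 105 against 80, 7 at 165 against 105 and 6 at 300 against 165 minutes. Members lower numbered 2 at 40, 3 at 80 and 9 at 300 against 0 minutes, 4 at 80 against 40, 3 at 165 against 105 and 5 at 300 against 165 minutes. Counted from 3-fold, members higher numbered 3 at 300 against 0 minutes and 0 in the comparisons of 0 and of 300 minutes against the asynchronous culture and in those of 80 against 40, 105 against 80, 165 against 105 and 300 against 165 minutes. Members lower from 3-fold numbered 12 at 0 minutes and 9 at 300 minutes against the asynchronous culture, and 0 at 300 against 0, 80 against 40 and 165 against 105 minutes. The cause of these shifts was not tested, apart from the higher or lower fold asked for. Genes under about 20 fragments (F9, F12, SERPINA3, SERPINA7 and C8G) are limited by depth, as is the short MASP2 transcript at 40 minutes.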
